A study of Mus musculus with 16 samples.

Results

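Adipogenic transcription factors, the DNA-binding proteins that turn precursor cells into fat cells and keep fat cells in that state, were followed in mouse mammary fat. The set was chosen by name and held 9 of the 23179 genes listed, namely Pparg, Rxra, Cebpa, Cebpb, Cebpd, Klf15, Ebf1, Ebf2 and Zfp423. All 9 were expressed above the filter on low values, with 696 to 38672 reads per library, so counting error was small beside the spread between mice. RNA-Seq had been run on the fat pad on the side opposite an E0771 mammary tumor in 16 libraries of female wild-type C57BL/6NCrl mice, 4 libraries for each of 4 groups. CON-LFD mice were never obese, had received the low-fat diet (10% of energy from fat) throughout and had a sham operation. DIO-HFD mice were made obese with the diet of 60% fat, had a sham operation and stayed on that diet. DIO-LFD mice were made obese in the same way, had a sham operation and were then moved to the low-fat diet. DIO-VSG mice were made obese, underwent vertical sleeve gastrectomy, in which part of the stomach is removed, and were then also fed the low-fat diet. Mice were 8 weeks old on arrival, had 15 weeks of diet before surgery, received E0771 cells at 22 weeks of diet and carried the tumor for about 4 weeks, so every group was tumor-bearing and none was tumor-free. Each library was 1 mouse by its label, and P values measure the spread between these libraries.

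Fat cell formation runs as a cascade. C/EBPβ (Cebpb) and C/EBPδ (Cebpd) appear first when hormones such as glucocorticoids act on a precursor, and they switch on PPARγ (Pparg) and C/EBPα (Cebpa), which then maintain each other. PPARγ is a nuclear receptor that binds DNA together with the retinoid X receptor RXRα (Rxra). Klf15, a Krüppel-like zinc finger factor induced by glucocorticoids, acts in adipocytes and also drives amino acid breakdown. The early B cell factors Ebf1 and Ebf2 and the zinc finger protein Zfp423 act in the precursor, Ebf2 mainly in the brown and beige lineage, and Ebf1 is also required by B lymphocytes.

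Promoter sequences were taken from RefSeq (GRCm38.p6), in which 12 windows of 300 bases around a transcription start matched 7 of the 9 members. Cebpd and Ebf2 had no entry. Of these windows, 3 are shown: that of Klf15, the member furthest from its control group, and those of Pparg and Cebpa, the pair that varied together. Capitals mark matches, on either strand, to the E-box CACGTG, which reads the same on both strands, or to the C/EBP-type motif TTNNGCAA, and matches did not overlap in these windows. Each window is on the plus strand, Klf15 at chr6:90462326-90462625, the downstream start of Pparg at chr6:115421816-115422115 and Cebpa at chr7:35119043-35119342.
Klf15: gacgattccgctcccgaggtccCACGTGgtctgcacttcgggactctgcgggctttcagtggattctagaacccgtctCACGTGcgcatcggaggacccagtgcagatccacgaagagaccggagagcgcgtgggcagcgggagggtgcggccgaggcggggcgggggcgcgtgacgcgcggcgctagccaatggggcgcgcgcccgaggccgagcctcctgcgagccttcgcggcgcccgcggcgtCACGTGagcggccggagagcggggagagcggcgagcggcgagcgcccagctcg
Pparg, downstream start: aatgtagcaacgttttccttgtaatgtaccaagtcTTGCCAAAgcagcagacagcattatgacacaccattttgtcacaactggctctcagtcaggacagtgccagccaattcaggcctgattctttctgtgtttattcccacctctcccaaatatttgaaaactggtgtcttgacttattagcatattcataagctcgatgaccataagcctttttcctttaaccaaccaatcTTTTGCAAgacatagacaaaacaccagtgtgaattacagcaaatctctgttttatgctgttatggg
Cebpa: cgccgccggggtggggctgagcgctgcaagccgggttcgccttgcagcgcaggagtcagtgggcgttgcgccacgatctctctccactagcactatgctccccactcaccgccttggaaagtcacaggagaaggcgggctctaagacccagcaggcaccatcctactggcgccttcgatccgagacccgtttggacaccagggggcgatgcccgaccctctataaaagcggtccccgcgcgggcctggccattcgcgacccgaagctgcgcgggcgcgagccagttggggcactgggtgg
The Klf15 window held 3 E-boxes, 228, 172 and 3 bases before the start. An E-box was present in 7.15% of the 32851 promoter windows of the same length, and 29 windows (0.0883%) held at least 3. The downstream start of Pparg, from which the adipocyte-selective PPARγ2 form is made, had 2 C/EBP-type matches, 215 and 16 bases before the start, and 10.8% of all windows had at least 1. Among the other windows, those of Rxra, Ebf1 and Cebpa and the upstream Pparg starts held no match to either motif, nor to the EBF-type motif CCCNNGGG, which was in 13.7% of windows. Cebpb had 1 EBF-type match, 208 bases before its start, and Zfp423 had 1 EBF-type match at one of its starts and 2 C/EBP-type matches at another. A match is a run of letters and not a measured binding site, and the deposited values are per gene, so the starts of Pparg were not measured separately.

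The libraries differed in their marker content both within the groups and between them. Markers of B cells, which fill the lymph node of this fat pad, were low in 4 libraries (CON-LFD replicates 2 and 4, DIO-HFD replicates 2 and 3) and high in the other 12, with all 10 markers detected and summed normalized counts between 386 and 104553. Skeletal muscle markers were high in DIO-LFD replicate 4, CON-LFD replicate 4 and DIO-VSG replicate 2, and keratinocyte markers in DIO-HFD replicate 4. All 8 adipocyte markers were abundant, with a summed count of at least 503942 per library, in the tissue the labels name, while the cell line entry of the labels, E0771, is that of the injected tumor. DIO-HFD replicate 1 held the lowest value of 5 of the 9 members (Pparg, Cebpa, Cebpb, Klf15 and Ebf2), and DIO-LFD replicate 1 held the highest value of 5 (Pparg, Rxra, Cebpb, Cebpd and Klf15). By score, the mean log2 value of a list relative to all libraries, the former was lowest in adipocyte markers (−0.98). It was also highest in B cell (2.34) and T cell (2.08) markers. The latter was highest in adipocyte markers (0.83) and in genes that respond to glucocorticoids (1.62). Library totals were 46907377 to 57610899 reads. In whole tissue, fewer cells of a type and less RNA per cell cannot be told apart.

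Levels between genes were compared as mean normalized counts per kilobase of exon over the 16 libraries. Cebpa was the most abundant member at 10089 per kilobase, and its lowest library (4314) lay above the highest library of Cebpb (3915), the nearest in range. Cebpb (2279) and Pparg (2241) followed, then Rxra (1552), Ebf1 (1159), Klf15 (775), Cebpd (509), Zfp423 (448) and Ebf2 (217). Below Cebpa, every pair of neighbours in this order overlapped in range. Values in the rest of the text are normalized counts per gene, that is reads divided by the size factor of the library, and are given for replicates 1 to 4 in that order.

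Pparg, the receptor at the centre of the cascade (chromosome 6, 115360951 to 115490399, plus strand), was at 7926, 9008, 5036 and 9792 in CON-LFD and at 2606, 6887, 6413 and 5205 in DIO-HFD. It was at 10167, 6146, 7691 and 7926 in DIO-LFD and at 4131, 3079, 6656 and 7194 in DIO-VSG. The means of DIO-HFD (5278 ± 1917, SD, n = 4) and DIO-VSG (5265 ± 1977) lay below those of CON-LFD (7941 ± 2082) and DIO-LFD (7983 ± 1657), but the groups overlapped in every comparison. The log2 difference between DIO-HFD and CON-LFD was −0.64 (SE 0.33, limma adjusted P = 0.439). Without DIO-HFD replicate 1 it was −0.33, so this library moved it by more than 1.5 times, and with the adipocyte marker score as a covariate it was −0.41. DIO-LFD stood 0.67 above DIO-HFD on the log2 scale (limma adjusted P = 0.626), 0.36 above it without that library and 1.09 above it in the 12 libraries rich in B cell markers. The difference between DIO-VSG and DIO-HFD was 0.01, with a 95% interval from −0.70 to 0.72, and turned to −0.03 when libraries were scaled to their total reads.

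Rxra, the partner with which PPARγ binds DNA (chromosome 2, 27676440 to 27762957, plus strand), was the member with the smallest spread over the libraries, with a coefficient of variation of 17.4%. It was at 8179, 8923, 8432 and 10316 in CON-LFD, 6657, 9449.6, 9806 and 8297 in DIO-HFD, and 11620.3, 8918, 8746 and 8877 in DIO-LFD. In DIO-VSG it was at 6878, 6934, 5774 and 7829, so all 4 DIO-VSG libraries lay below all 8 low-fat libraries that had not had the gastrectomy. The log2 difference was −0.47 against DIO-LFD (SE 0.14, limma adjusted P = 0.509) and −0.39 against CON-LFD (SE 0.14, adjusted P = 0.268). With the adipocyte marker score as a covariate they were −0.30 and −0.19, and the difference from CON-LFD was −0.20 when the B cell score was a covariate. Rxra ranked 139 of 21218 genes by limma's test against DIO-LFD. For each of these differences, the exact two-sided permutation test gave 0.0286, the smallest value 4 against 4 libraries allow. DIO-HFD and CON-LFD differed by −0.08 (95% interval −0.37 to 0.22), which became 0.07 with scaling to total reads.

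Cebpa, which sustains the mature adipocyte together with PPARγ (chromosome 7, 35119293 to 35121928, plus strand), was at 31829, 31730.0, 18893 and 38859 in CON-LFD and at 11372, 28941, 25340.5 and 24182 in DIO-HFD. DIO-LFD had 23192, 28321, 32549.7 and 36142, and DIO-VSG had 23229, 15449, 24222 and 31277. The lowest library was again DIO-HFD replicate 1, and no pair of groups was apart. The log2 difference between DIO-HFD and CON-LFD was −0.47 (SE 0.30, limma adjusted P = 0.541) and −0.17 without that library.

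Cebpb, an early factor of the cascade (chromosome 2, 167688915 to 167690418, plus strand), was at 4377, 5804, 2985 and 3422 in CON-LFD, 1770.2, 3013, 3443 and 2355 in DIO-HFD, 5888, 4441, 3914 and 2478 in DIO-LFD and 2641, 2387, 3826 and 2089 in DIO-VSG. The means of CON-LFD (4147 ± 1248) and DIO-LFD (4180.2 ± 1409) were close, as were those of DIO-HFD (2645 ± 735) and DIO-VSG (2736 ± 761), with overlap between all groups. DIO-HFD differed from CON-LFD by −0.65 on the log2 scale (SE 0.29, limma adjusted P = 0.366), and DIO-LFD was 0.64 above DIO-HFD (adjusted P = 0.572) and 0.97 above it in the 12 libraries rich in B cell markers. Tmem189 overlaps Cebpb on the opposite strand, as Spidr overlaps Cebpd and noncoding genes overlap Pparg, Cebpa, Ebf1 and Ebf2, and whether strand was used in counting is not given in the sources used here, so reads of such partners may not be told apart.

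Cebpd, the other early C/EBP factor (chromosome 16, 15887286 to 15891031, plus strand), varied most, with a coefficient of variation of 54.0% over the libraries. It was at 1596, 2018, 2461 and 2318 in CON-LFD and at 1307, 1738, 856 and 1507 in DIO-HFD. In DIO-LFD it was at 5150.2, 2179, 1250.3 and 952, and in DIO-VSG at 2006, 2695, 1498 and 964. The spread in DIO-LFD came mainly from replicate 1, which had the highest value of all libraries. DIO-LFD stood 0.55 above DIO-HFD on the log2 scale (SE 0.44, limma adjusted P = 0.839) 0.07 above it without that replicate, 0.34 without DIO-HFD replicate 3, 0.88 without DIO-LFD replicate 4 and 0.01 with library weights.

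**Figure D1:**
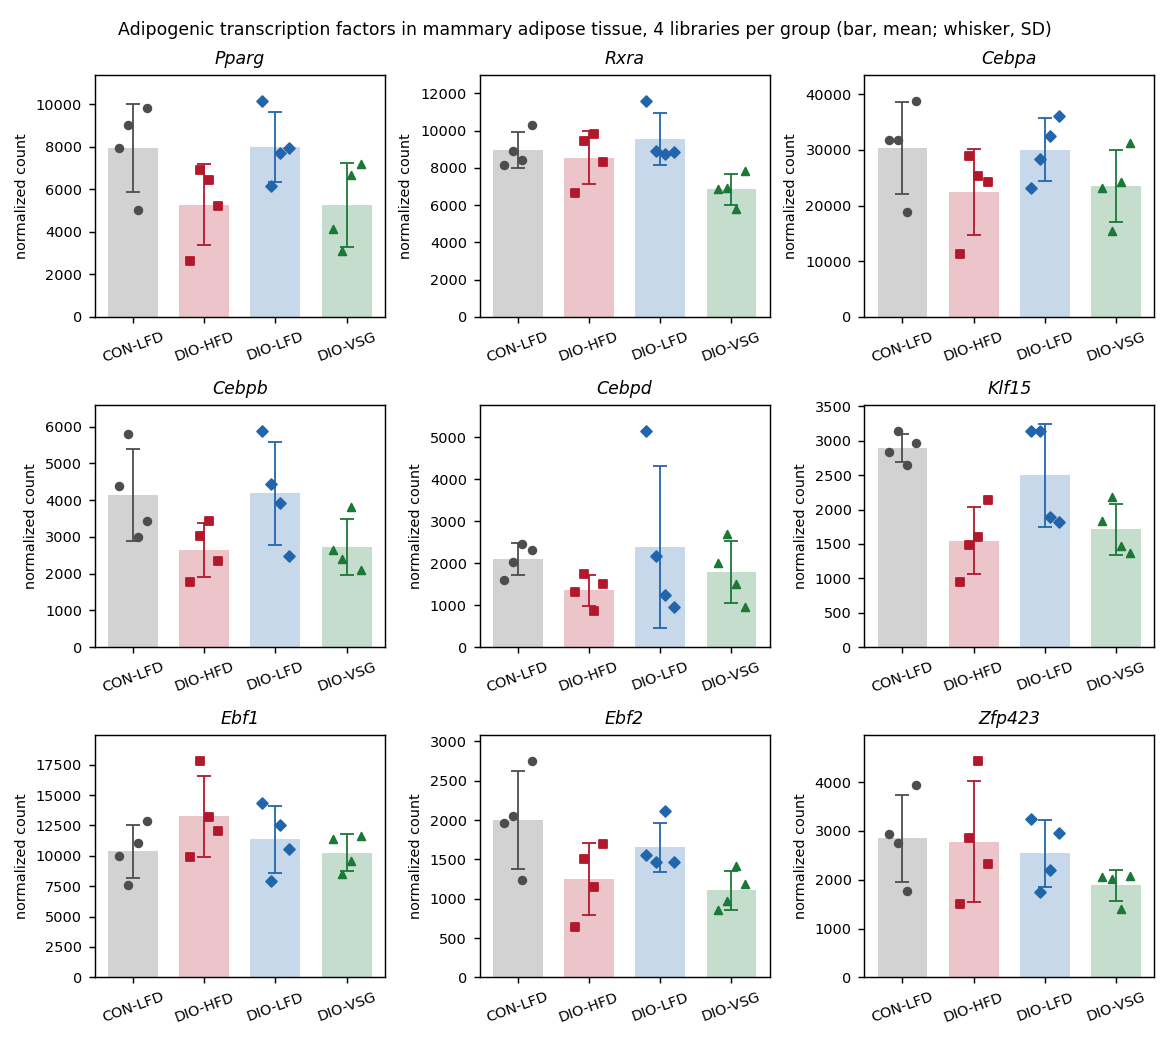
Normalized counts of the 9 members in each of the 16 libraries, by group; points are libraries and bars are group means with the SD. Klf15 in DIO-HFD (953 to 2139) and in DIO-VSG (1369 to 2178) lies wholly below CON-LFD (2644 to 3136), whereas most other members overlap between groups.

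Klf15 (chromosome 6, 90462576 to 90475238, plus strand), whose promoter window with 3 E-boxes is printed above, had the smallest unadjusted limma P and the largest log2 difference of any member. It was at 2835, 3136, 2644 and 2969 in CON-LFD, a narrow range, and at 953, 1488, 1601 and 2139 in DIO-HFD, with every DIO-HFD library below every CON-LFD library. DIO-LFD was divided, with 3147 and 3137 in replicates 1 and 2 and 1891 and 1815 in replicates 3 and 4. DIO-VSG was at 1831, 2178, 1472 and 1369, again wholly below CON-LFD.

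Between DIO-HFD (1546 ± 486) and CON-LFD (2896 ± 208) Klf15 differed by −0.96 on the log2 scale (SE 0.24, 95% interval −1.48 to −0.44), a fold of 0.514. Its unadjusted limma P was 0.00137, at rank 156 of 21218 genes, and the adjusted P was 0.186, so it did not pass the threshold of 0.05. The exact permutation test gave 0.0286, the smallest value it allows. Over all 29 settings, the unadjusted limma P lay between 0.000369 and 0.0365 and the adjusted P never fell below 0.0817. The difference was −0.75 without DIO-HFD replicate 1 and −0.50 when libraries were weighted by their quality. It was −0.98 between the pairs of libraries poor in B cell markers and −0.94 between the pairs rich in them, with 2 libraries a group in each and no test.

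For the weight-loss groups, Klf15 in DIO-VSG differed from CON-LFD by −0.78 (SE 0.24, limma adjusted P = 0.268), again with no overlap. DIO-LFD exceeded DIO-HFD by 0.70 (SE 0.24, limma adjusted P = 0.463), with overlapping libraries, by 0.49 without DIO-HFD replicate 1 and by 0.11 with library weights. DIO-VSG and DIO-HFD differed by 0.18 (95% interval −0.34 to 0.70), and by −0.03 without DIO-HFD replicate 1.

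Ebf1 (chromosome 11, 44617317 to 45008091, plus strand), an early factor of the fat lineage, was the only member fitted higher in DIO-HFD than in CON-LFD, although scaling to total reads, the adipocyte score as a covariate or leaving out DIO-HFD replicate 1 turned Rxra and Zfp423 to above 0. It was at 9949, 7565, 11069.9 and 12857 in CON-LFD, 9913, 17816, 13213 and 12033 in DIO-HFD, 14366, 7944, 12531 and 10588 in DIO-LFD and 11429.5, 8487, 9549 and 11623 in DIO-VSG. The groups overlapped, and the log2 difference between DIO-HFD and CON-LFD was 0.35 (SE 0.22, limma adjusted P = 0.523), 0.19 without DIO-HFD replicate 2 and 0.21 without CON-LFD replicate 2. It was 0.64 between the pairs poor in B cell markers and 0.06 between the pairs rich in them. The highest value, 17816, was in DIO-HFD replicate 2, 1 of the 4 libraries poor in B cell markers.

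Ebf2 (chromosome 14, 67233292 to 67430918, plus strand), the factor of the brown and beige lineage, was at 1961, 2051, 1238 and 2752 in CON-LFD and at 644, 1509.5, 1151 and 1690.4 in DIO-HFD. In DIO-LFD it was at 1558, 1473, 2119 and 1472, and in DIO-VSG at 859, 972, 1420.5 and 1183. Every DIO-VSG library lay below every DIO-LFD library, by a narrow gap between 1420.5 and 1472. The log2 difference of DIO-VSG was −0.59 from DIO-LFD (SE 0.29, limma adjusted P = 0.509, exact permutation P = 0.0286) and −0.82 from CON-LFD (adjusted P = 0.268). The former was −0.35 with the adipocyte marker score as a covariate and the latter −0.51 when the B cell score was a covariate. DIO-HFD differed from CON-LFD by −0.71 (SE 0.29, limma adjusted P = 0.327), by −0.43 without DIO-HFD replicate 1 and by −0.30 with library weights. The thermogenic marker list, which contains genes of the brown and beige program that Ebf2 belongs to, was fitted lower in 7 of its 7 members in DIO-HFD, with a median log2 difference of −3.09 from CON-LFD and 5 members below an unadjusted limma P of 0.05 (12.9% of all genes). Without CON-LFD replicate 2 the median was −2.04 with 3 below that P, and 3 were also below it without DIO-HFD replicate 1. In DIO-VSG against DIO-HFD this list was fitted higher in 7 of 7, with a median of 2.35 and 2 members below that P (13.2% of all genes), or 1 with limma-voom. The DIO-VSG libraries were divided, with list scores (mean log2 values relative to all libraries) of −1.32, −1.69, 3.20 and 1.46 against −3.21 to −1.07 in DIO-HFD, so replicates 1 and 2 lay within the DIO-HFD range, and without replicate 3 the median was 1.37. The mean of Ebf2 was no higher in DIO-VSG (1109) than in DIO-HFD (1249). In DIO-LFD against DIO-HFD the thermogenic list was also fitted higher in 7 of 7, with a median of 2.41. There, 2 members were below an unadjusted limma P of 0.05 (8.53% of all genes).

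Zfp423 (chromosome 8, 87661810 to 87959595, minus strand), which commits precursors to the fat lineage, was at 2942, 2752, 1769 and 3931 in CON-LFD, 1509, 2859.6, 4433 and 2317 in DIO-HFD, 3250.4, 1745, 2207 and 2955 in DIO-LFD and 2061, 2005, 1404 and 2069 in DIO-VSG. DIO-VSG was the lowest and the narrowest group, but it overlapped the others. Its log2 difference was −0.56 from CON-LFD (SE 0.31, limma adjusted P = 0.333), −0.29 in the 12 libraries rich in B cell markers, −0.10 with the adipocyte marker score as a covariate and −0.02 when the B cell score was a covariate. DIO-HFD and CON-LFD differed by −0.09 (95% interval −0.75 to 0.58), and by 0.06 with scaling to total reads.

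**Figure D2:**
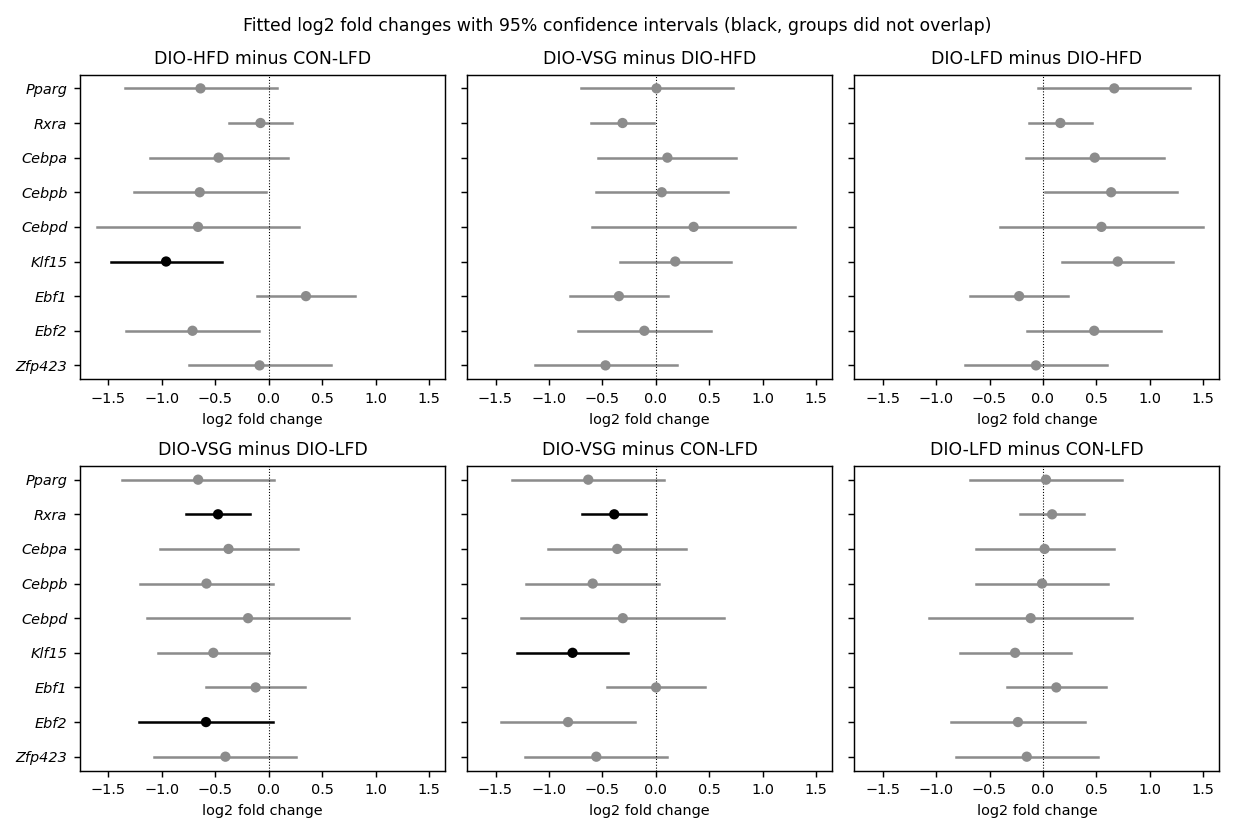
Log2 differences of the 9 members in the 6 comparisons, with 95% intervals from limma; black marks comparisons in which the libraries of the groups did not overlap. Klf15 is the member furthest below 0 in DIO-HFD against CON-LFD (−0.96), and no member passed the adjusted threshold in any comparison.

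No member passed an adjusted limma P of 0.05 in any of the 6 comparisons, with limma-trend or with limma-voom on the recovered reads, which gave the same counts at an unadjusted P below 0.05. Obesity was addressed by setting DIO-HFD against CON-LFD. In this pair, 0 members passed the adjusted threshold (0.0377% of all genes did), 3 were below an unadjusted P of 0.05 (12.9% of all genes), namely Klf15, Ebf2 and Cebpb, and 1, Klf15, had groups that did not overlap (4.76% of all genes). Of the 9 members, 8 were fitted lower (all but Ebf1), with a median log2 difference of −0.64, against 0.02 over all genes. Without DIO-HFD replicate 1, 6 were fitted lower, with a median of −0.33. Rxra and Zfp423 turned to above 0 there, with scaling to total reads and with the adipocyte score as a covariate. No gene of the marker lists named next passed the adjusted threshold. Adipocyte markers were fitted lower in 6 of 8 (median −0.44, summed counts 807216 to 1401236 in CON-LFD and 503942 to 1403811 in DIO-HFD), mammary epithelium markers in 8 of 8 (median −0.74, summed counts 32576 to 64072 and 21678 to 42874), and B cell markers were fitted higher in 10 of 10 (median 1.15, summed counts 386 to 78882 and 1266 to 104553). Their part in the members' differences was not tested beyond the fit with a B cell score as a covariate. The adipocyte score cannot test it, since its genes are known targets of PPARγ or C/EBPα. Total-read scaling moved the median of all genes by 0.141 here and by 0.109 between DIO-VSG and CON-LFD.

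The comparisons of DIO-VSG and DIO-LFD with DIO-HFD addressed weight loss by surgery and by diet. In DIO-VSG against DIO-HFD, 0 members passed the adjusted threshold (0% of all genes), 1, Rxra, was below an unadjusted limma P of 0.05 (13.2% of genes), lower by a log2 difference of −0.31 (−0.13 in the 12 libraries rich in B cell markers, −0.18 when the B cell score was a covariate and −0.21 with the adipocyte score, of which the first 2 were not below that P), and 0 had groups that did not overlap (6.59%). The median log2 difference of the members was 0.01, with 5 fitted higher. Without DIO-HFD replicate 1 the median was −0.30 and 1 member, Cebpd, was fitted higher. Scaling to total reads also turned Pparg, and library weights turned Klf15. By the fit, B cell markers were higher in 10 of 10 (median 2.70), endothelial markers lower in 5 of 5 (median −0.46, summed counts 39134 to 61622 in DIO-HFD and 33647 to 34955 in DIO-VSG) and progenitor markers lower in 7 of 10 (median −0.61, summed counts 69008 to 100464 and 38595 to 77838). In DIO-LFD against DIO-HFD, 0 passed (0%), 2, Klf15 and Cebpb, were below an unadjusted P of 0.05 (8.53%), both higher, and 0 did not overlap (4.51%). The median was 0.48, with 7 members fitted higher, and 0.19 without DIO-HFD replicate 1, again with 7. By the fit, mammary epithelium markers were higher in 6 of 8 (median 0.70, summed counts 21678 to 42874 in DIO-HFD and 30629 to 85949 in DIO-LFD), 5 of them below an unadjusted P of 0.05, adipocyte markers in 7 of 8 (median 0.33) and B cell markers in 10 of 10 (median 1.51). The part of these cell types in the members' differences was not tested beyond the 2 score covariates. These 2 comparisons share the DIO-HFD libraries, among them replicate 1.

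Between the treatments themselves, DIO-VSG against DIO-LFD, all 9 members were fitted lower in DIO-VSG (Cebpd turned with library weights and without DIO-VSG replicate 4, Ebf1 with the adipocyte score as a covariate, and both without DIO-LFD replicate 1), with a median log2 difference of −0.47 against −0.02 over all genes, and −0.24 with the adipocyte score as a covariate. Beside this, adipocyte markers were fitted lower in 8 of 8 (median −0.42), endothelial markers lower in 5 of 5 (median −0.56, summed counts 34052 to 69186 in DIO-LFD and 33647 to 34955 in DIO-VSG) and B cell markers higher in 10 of 10 (median 1.22, summed counts 19086 to 42823 and 70525 to 82308). By the limma test, 0 passed the adjusted threshold (0%), 1, Rxra, was below an unadjusted P of 0.05 (9.71%), and Rxra and Ebf2, 2 members, did not overlap (18.8%). Against CON-LFD, DIO-VSG had 0 members past the adjusted threshold (0%), 3 below an unadjusted P of 0.05 (17.8%), namely Klf15, Ebf2 and Rxra, and 2 without overlap (7.02%), Klf15 and Rxra, with 8 fitted lower (median −0.56, and −0.19 and −0.17 when the B cell or the adipocyte score was a covariate). In that comparison adipocyte markers were also fitted lower in 8 of 8 (median −0.52) and B cell markers higher in 10 of 10 (median 3.87), all 10 below an unadjusted limma P of 0.05. Neutrophil markers were fitted higher in 5 of 5 (median 2.20), 3 of them below that P (17.8% of all genes). DIO-LFD against CON-LFD had 0 (0.00471%), 0 (6.26%) and 0 (3.53%), with a median of −0.01. Weighting libraries by their quality put 6 of the 54 member differences past the adjusted threshold, but it did so for many genes. With weights, 1 of the 9 members passed in DIO-HFD against CON-LFD (19.8% of all genes), 1 in DIO-VSG against DIO-HFD (17.6%), 4 in DIO-VSG against CON-LFD (19.9%) and 0 in DIO-LFD against DIO-HFD (8.54%), in DIO-VSG against DIO-LFD (0.867%) and in DIO-LFD against CON-LFD (0.25%).

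The counts of members below an unadjusted limma P of 0.05 rested on few libraries. In DIO-HFD against CON-LFD the count of 3 was 1 without CON-LFD replicate 1, CON-LFD replicate 2 or DIO-HFD replicate 1, and 5 without CON-LFD replicate 3. In DIO-VSG against CON-LFD it was 6 without CON-LFD replicate 3 and 5 without DIO-HFD replicate 1. In DIO-VSG against DIO-LFD the count of 1 was 4 without DIO-HFD replicate 1 or DIO-VSG replicate 3, 3 without DIO-LFD replicate 4 and 1 or 2 without any other library. In DIO-LFD against DIO-HFD the count was 1 to 3, and in DIO-VSG against DIO-HFD 0 to 2. A library outside the pair compared enters through the shared estimate of the spread.

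The other genes of the pathway were read from lists. Of 22 partners and relatives of the members, 15 were fitted lower in DIO-HFD than in CON-LFD, 5 of them below an unadjusted limma P of 0.05 (12.9% of all genes, and 8 without CON-LFD replicate 3 or 1 in the 12 libraries) and 0 past the adjusted threshold. Their median was −0.23, and −0.12 without DIO-HFD replicate 1. Srebf1, which drives lipid synthesis and promotes adipogenesis, was at 12832 ± 2636 in the never-obese mice and 7341 ± 1276 in DIO-HFD (log2 difference −0.80, adjusted P = 0.182). It was at 14762 ± 2681 in DIO-LFD and 12410.1 ± 2409 in DIO-VSG, so unlike Pparg and Klf15 its DIO-VSG mean was close to that of CON-LFD. Of 19 inhibitors of adipogenesis, 9 were fitted lower and 10 higher in DIO-HFD, with a median of 0.06, and Gata3, a zinc finger factor that holds precursors back, had 6954 ± 1686 in CON-LFD against 4059 ± 1500.3 in the obese mice of DIO-HFD (log2 difference −0.81, limma adjusted P = 0.215). Mammary epithelium markers were also fitted lower there, in 8 of 8 (median −0.74), and higher in DIO-VSG than in DIO-HFD in 6 of 8 (median 0.19). Which cells of the fat pad carried Gata3 was not tested. In DIO-VSG against DIO-HFD the inhibitors had 6 members lower and 1 higher at an unadjusted P below 0.05 (13.2% of all genes). The lower ones included Gata2 (log2 difference −0.52) and Zfp521 (−0.59), which opposes Zfp423, and the higher one was Gata3 (0.58). The count of 7 was 4 without DIO-HFD replicate 2 or 3, 4 when the B cell score was a covariate and 3 in the 12 libraries. Lower there too by the fit were the progenitor marker Pdgfrb (−0.98) and the endothelial marker Cdh5 (−0.78).

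Genes known as targets of PPARγ or C/EBPα serve mostly the storage and release of fat. Of the 24 tested, 21 were fitted lower in DIO-HFD than in CON-LFD with a median log2 difference of −0.57, 9 of them below an unadjusted limma P of 0.05 (12.9% of all genes), and 22 were fitted higher in DIO-LFD than in DIO-HFD with a median of 0.73, 8 of them below it (8.53% of all genes). Without DIO-HFD replicate 1, 19 were lower in the former (median −0.25, 7 below that P) and 16 higher in the latter (median 0.41, 5 below it). In DIO-VSG against DIO-HFD 16 of the 24 were fitted higher with a median of 0.11, and 7 were below an unadjusted P of 0.05 (13.2% of all genes), 5 higher and 2 lower. That median was −0.18 without DIO-HFD replicate 1, 0.49 with 21 higher and 10 below that P when the B cell score was a covariate, and 0.57 with 21 higher and 6 below it in the 12 libraries rich in B cell markers. None passed the adjusted threshold. Pck1, an enzyme of the pathway that supplies glycerol phosphate for fat storage, was at 166926 ± 67918 in CON-LFD, 55511 ± 16599 in DIO-HFD, 154614 ± 89280.3 in DIO-LFD and 106629 ± 36294 in DIO-VSG. Gpd1, which also makes glycerol phosphate, was at 49341 ± 25496, 13633 ± 10056, 48324 ± 13626 and 45842 ± 21103 in the same groups.

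Amino acid catabolism genes linked to Klf15 were lower in DIO-HFD in all 9 of 9 by the fit, with a median log2 difference of −0.57 from CON-LFD and 6 below an unadjusted limma P of 0.05 (12.9% of all genes). Without DIO-HFD replicate 1 the 9 were again lower, with a median of −0.33 and 2 below that P, and 2 or 3 were below it without CON-LFD replicate 1, 2 or 4. In DIO-VSG against CON-LFD, 9 of 9 were also fitted lower (median −0.61), 4 of them below an unadjusted P of 0.05 (17.8% of all genes). Bcat2, the mitochondrial branched-chain aminotransferase, was at 2628 ± 341 in CON-LFD, 1617 ± 335 in DIO-HFD, 2642 ± 668 in DIO-LFD and 1718 ± 316 in DIO-VSG, and as for Klf15 the means of DIO-HFD and DIO-VSG lay below those of CON-LFD and DIO-LFD. Genes that respond to glucocorticoids had 11 of 12 tested members fitted lower in DIO-HFD (median −0.50), 1 of them, the clock gene Per1, below an unadjusted P of 0.05, where 12.9% of all genes were. No gene of either list passed the adjusted threshold.

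Over the 16 libraries, Pparg and Cebpa rose and fell together (Pearson's r = 0.86, permutation P = 9.0e-05, adjusted over 171 relations P = 0.00192, Spearman's rho = 0.73, adjusted P = 0.0175). Without the libraries furthest from the median of Pparg, r was 0.63, and on deviations from group means it was 0.83. Pparg was also related to Ebf2 (r = 0.84, permutation P = 6.0e-05, adjusted P = 0.00147, rho = 0.75, r without the extreme libraries 0.71). Cebpa was related to Ebf2 (r = 0.81, permutation P = 0.00017, adjusted P = 0.00291, rho = 0.69). Rxra was related to Pparg (r = 0.67, permutation P = 0.00472, adjusted P = 0.0323, rho = 0.64, r without the extreme libraries 0.56) and to Zfp423 (r = 0.79, permutation P = 0.00029, adjusted P = 0.00413, rho = 0.76, r without the extreme libraries 0.73). Of the 36 pairs of members, 10 passed an adjusted P of 0.05 by Pearson's r and 7 by both measures.

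Klf15 and Cebpd, which with Cebpb are the members linked to glucocorticoids above, formed another pair (r = 0.65, permutation P = 0.00625, adjusted P = 0.0356, rho = 0.74, r without the extreme libraries 0.60). No relation of Cebpd to Pparg (r = 0.07) or Cebpa (r = −0.20) passed this test. The relation of Klf15 to Cebpb (r = 0.71, permutation P = 0.00198, adjusted P = 0.0176, rho = 0.66) was weaker on deviations from group means (r = 0.49).

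**Figure D3:**
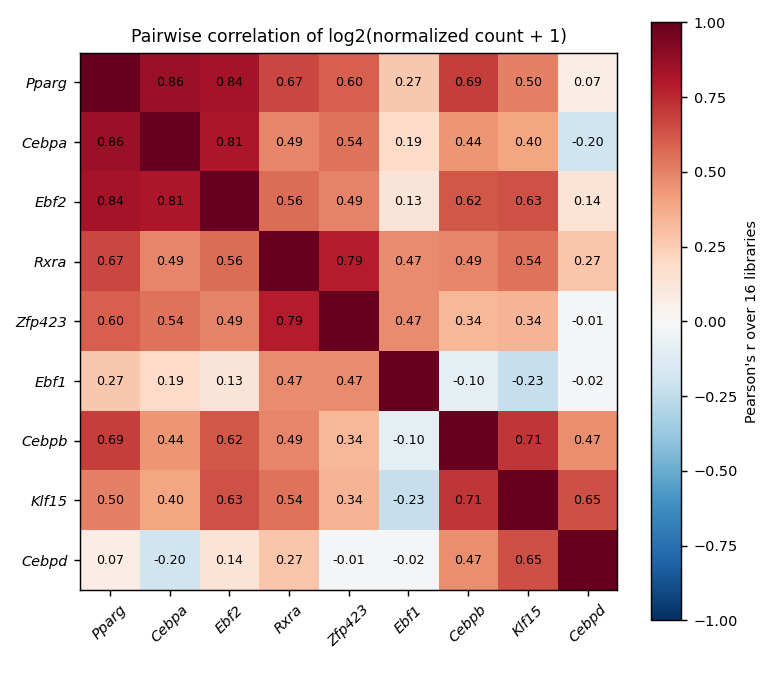
Pearson's r between members over the 16 libraries, on log2(normalized count + 1). Pparg, Cebpa and Ebf2 are related to each other at 0.81 to 0.86, Rxra goes with Zfp423 at 0.79, and Cebpd is close to 0 with Pparg.

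Each relation of a member to a list used a score, the mean log2 value of the list's genes in a library relative to their mean over all libraries. Pparg went with the score of its targets (r = 0.89, permutation P = 2.0e-05, adjusted P = 0.00114, rho = 0.87, r without the extreme libraries 0.85). The target score also went with Cebpa (r = 0.80), Cebpb (r = 0.77), Ebf2 (r = 0.76) and Klf15 (r = 0.64), each at an adjusted permutation P below 0.05. Klf15 went with the amino acid catabolism score (r = 0.88, permutation P = 2.0e-05, adjusted P = 0.00114, rho = 0.83, r without the extreme libraries 0.79). This score was not particular to Klf15, and went with Cebpb too (r = 0.82, adjusted permutation P = 0.00209, rho = 0.66). By Pearson's r, Ebf2 (r = 0.73), Pparg (r = 0.71), Rxra (r = 0.63) and Zfp423 (r = 0.62) also passed an adjusted P of 0.05 with it. Cebpd went with the glucocorticoid score (r = 0.89, permutation P = 1.0e-05, the smallest these resamples can give, adjusted P = 0.00114, rho = 0.89, r without the extreme libraries 0.84), to which Klf15 was less closely related (r = 0.65, rho = 0.79). Cebpa was inversely related to the neutrophil marker score (r = −0.71, adjusted permutation P = 0.0268, rho = −0.73, r without the extreme libraries −0.68). All 8 adipocyte markers are also in the target list, and the adipocyte marker score itself went with Rxra (r = 0.86), Zfp423 (r = 0.86) and Pparg (r = 0.83), each with an adjusted permutation P of 0.00114. The part of adipocyte content in the differences between groups was not tested. The fit with this score as a covariate cannot test it, since its genes are known targets of PPARγ or C/EBPα.

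Over all 16 libraries, only Zfp423 passed an adjusted P of 0.05 with the B cell score by Pearson's r (r = −0.76, permutation P adjusted over 171 relations = 0.00479). Rxra (r = −0.60), Pparg (−0.55), Cebpb and Ebf2 (−0.51 each) and Klf15 (−0.32) did not, at adjusted P of 0.0548 to 0.371. By Spearman's rho, Zfp423, Rxra, Pparg and Ebf2 passed over the 16. Since 4 libraries formed a separate cluster with low B cell markers, the relation was also computed in the other 12, a choice made after the data were seen. There Zfp423 (r = −0.82), Rxra (r = −0.77), Pparg (r = −0.77), Cebpb (r = −0.75), Ebf2 (r = −0.71) and Klf15 (r = −0.67) were inversely related to the B cell score, with permutation P values adjusted over 9 relations of 0.00891 to 0.0277. Without the libraries furthest from the median of the score, r was −0.65, −0.77, −0.71, −0.50, −0.75 and −0.49 in the same order. By Spearman's rho, the relations of Zfp423, Rxra, Pparg and Ebf2 passed and those of Cebpb and Klf15 did not (adjusted permutation P = 0.0632 for each). Ebf1, a gene that B cells also use, showed no relation that passed (r = −0.29), nor did Cebpd (r = −0.30) and Cebpa (r = −0.57, adjusted permutation P = 0.0669). The T cell score ran the same way in these 12 libraries, without a test. Its r was −0.80 for Cebpb, −0.78 for Ebf2, −0.75 for Rxra, −0.74 for Pparg, −0.73 for Klf15 and −0.62 for Zfp423. Over all 16, Rxra and Zfp423 passed both measures with the T cell score (r = −0.69 and −0.78) and with the endothelial score (r = 0.71 and 0.66). All 4 DIO-VSG libraries had high B cell scores, between 1.78 and 2.00, and none of the 4 DIO-LFD libraries exceeded 1.04, so in this pair of groups the B cell score and the treatment cannot be told apart.

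**Figure D4:**
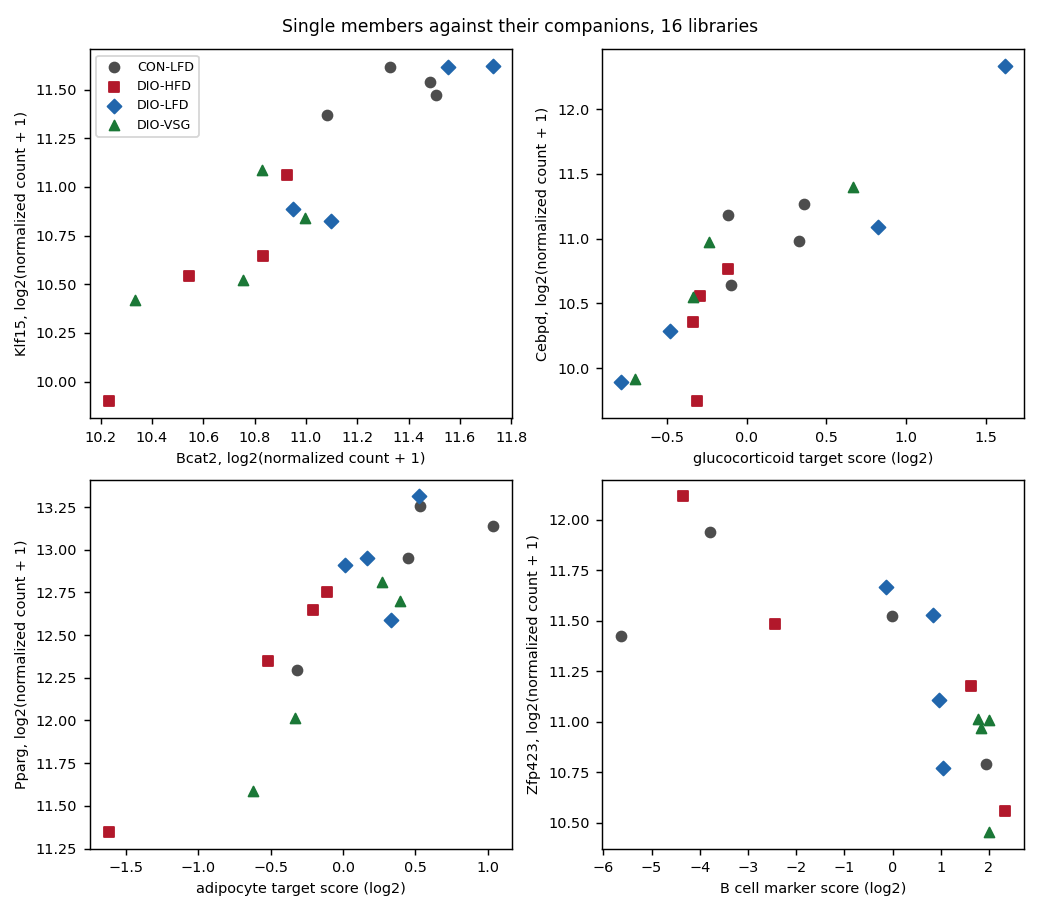
Members against other measures over the libraries: Klf15 against Bcat2, Cebpd against the glucocorticoid score, Pparg against the adipocyte target score and Zfp423 against the B cell score; points are libraries, with groups by colour. The first 3 rise together (r = 0.93, 0.89 and 0.89), while Zfp423 falls as the B cell score rises in the 12 libraries rich in B cell markers (r = −0.82).

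For each member, the genes with the most similar pattern were sought among 13302 genes over the 16 libraries, as a description without a test. For Pparg it was Lipe (r = 0.95), the hormone-sensitive lipase, and for Cebpa it was Plin1 (r = 0.95), the perilipin that coats the lipid droplet. For Klf15 it was Bcat2 (r = 0.93), followed by Klf9 (r = 0.91), a related Krüppel-like factor. Zfp423 was closest to Inpp5a (r = 0.97), Rxra to Pttg1ip (r = 0.93), Ebf2 to Gng7 (r = 0.93), Cebpb to Thpo (r = 0.90), Cebpd to Serinc3 (r = 0.90) and Ebf1 to Akap12 (r = 0.87). Ebf1 thus had the least close match of the 9.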

How the data were processed

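Total RNA from 16 mouse mammary fat pads was sequenced by the authors with stranded libraries. Their methods give STAR on GRCm38, salmon and a Gencode annotation of unstated release, while the submitters' processing notes list TopHat2 2.0.7, HTSeq 0.5.3p9 and mm10. The authors used DESeq2 by both accounts. The deposited values, called normalized counts, were on a log2 scale from 5.36 to 21.85: they fitted the authors' variance-stabilizing transformation, which was inverted. Whole reads were then recovered for 100.0% of values within 0.01 of a read. The design had assumed normalized counts from this inversion.

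A gene entered the test if 4 or more libraries had 10 or more normalized counts, which left 21218 genes. Values were taken as log2 with a pseudocount of 1 and fitted by limma-trend for all 4 groups together (limma 3.58.1 under R 4.3.3). P values were two-sided and adjusted by Benjamini-Hochberg over all genes, with a threshold of 0.05. Fold changes on this scale understate those of low genes. Single members were also compared with exact permutation tests (4 against 4), and relations with permutation tests (100000 resamples). The script was tested on simulated data. Columns left without a sample numbered 0. Positions and exon lengths came from GENCODE M21 on GRCm38. Alternatives were other pseudocounts, filters, scalings, weights, covariates, limma-voom, the replicate block and leaving out each library. The fits and relations on the 12 libraries rich in B cell markers, and the fits with an adipocyte score, were chosen after the data were seen. The members and lists were chosen with earlier results of these data known. Named genes were the members, the 2 genes of each list with the smallest P in each comparison with DIO-HFD, of which only those that bear on a member are printed, and the 3 genes most like each member, of which the closest, and for Klf15 the 2 closest, are printed. Libraries were compared within each group, and none of these 24 pairs was the same (chi-square per gene at least 67.5).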

Additional observations from a re-analysis of the deposited data

Results flagged for a closer look

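In 36 groups of 4 libraries, 1 for each member in each group, 3 had a value set far apart from the other 3, and chance gives about 1 in 20 groups. The Rxra value of DIO-LFD replicate 1, 11620.3 normalized counts, was above the other DIO-LFD libraries by 0.94 of the whole range. The Ebf2 value of DIO-LFD replicate 3, 2119.3, was above the others of its group by 0.867 of the range. The Zfp423 value of DIO-VSG replicate 3, 1404.1, was below the others of its group by 0.904 of the range.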

How the results depend on the processing

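Of the member differences under settings other than leaving out a library, 670 kept direction and side of the threshold, 6 passed it and 26 changed sign. Scaling to total reads turned the sign in DIO-HFD minus CON-LFD (Rxra 0.065, Zfp423 0.057), DIO-VSG minus DIO-HFD (Pparg −0.027), DIO-LFD minus CON-LFD (Cebpb 0.051). Library weights turned the sign in DIO-VSG minus DIO-HFD (Klf15 −0.32), DIO-LFD minus DIO-HFD (Zfp423 0.039), DIO-VSG minus DIO-LFD (Cebpd 0.071), DIO-LFD minus CON-LFD (Pparg −0.061). The B cell score as a covariate turned the sign in DIO-HFD minus CON-LFD (Zfp423 0.079), DIO-VSG minus DIO-HFD (Ebf2 0.11), DIO-LFD minus DIO-HFD (Zfp423 0.13), DIO-VSG minus CON-LFD (Cebpa 0.033), DIO-LFD minus CON-LFD (Cebpb 0.26, Zfp423 0.21). The fit of the 12 libraries rich in B cell markers turned the sign in DIO-VSG minus DIO-HFD (Ebf2 0.061), DIO-LFD minus DIO-HFD (Ebf1 0.022, Zfp423 0.40), DIO-VSG minus CON-LFD (Ebf1 −0.043), DIO-LFD minus CON-LFD (Cebpb 0.14, Ebf2 0.070, Zfp423 0.11). The adipocyte marker score as a covariate turned the sign in DIO-HFD minus CON-LFD (Rxra 0.018, Zfp423 0.13), DIO-VSG minus DIO-HFD (Ebf2 0.031), DIO-VSG minus DIO-LFD (Ebf1 0.062), DIO-LFD minus CON-LFD (Cebpb 0.024). The 6 that passed did so under library weights, namely Cebpb in DIO-HFD minus CON-LFD (−0.83), Rxra in DIO-VSG minus DIO-HFD (−0.29), and Rxra (−0.34), Klf15 (−0.82), Ebf2 (−0.83) and Zfp423 (−0.66) in DIO-VSG minus CON-LFD. Leaving out 1 library kept 826 member differences and turned 38, which gave these ranges: in DIO-VSG minus CON-LFD, Ebf1 −0.14 to 0.11. In DIO-LFD minus CON-LFD, Cebpb −0.20 to 0.22, Ebf1 −0.018 to 0.29, Pparg −0.18 to 0.15, Cebpa −0.20 to 0.15, Zfp423 −0.36 to 0.022, Rxra −0.013 to 0.15, Cebpd −0.59 to 0.22. In DIO-HFD minus CON-LFD, Zfp423 −0.35 to 0.17, Rxra −0.15 to 0.037. In DIO-VSG minus DIO-HFD, Pparg −0.30 to 0.24, Cebpa −0.19 to 0.30, Cebpb −0.12 to 0.20, Klf15 −0.032 to 0.36, Ebf2 −0.40 to 0.068. In DIO-LFD minus DIO-HFD, Zfp423 −0.32 to 0.19. In DIO-VSG minus DIO-LFD, Cebpd −0.53 to 0.28, Ebf1 −0.28 to 0.0013.

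The count of all genes past the adjusted threshold, 8 in DIO-HFD minus CON-LFD, 1 in DIO-LFD minus CON-LFD and 0 in the other comparisons, depended on the setting. In DIO-HFD minus CON-LFD it was 0 with limma-voom or with only the 2 groups compared, 1 with the replicate block or in the 12 libraries, 3 with quantile normalization, 17 with the B cell score, 19 with total-read scaling, 64 with the adipocyte score and 4196 with library weights. In DIO-LFD minus CON-LFD it was 0 with limma-voom, with only 2 groups or with the replicate block, 2 with pseudocount 8, with the variance-stabilized values or with total-read scaling, 3 in the 12 libraries, 6 with the B cell score and 53 with weights. In DIO-VSG minus CON-LFD it was 1 with the variance-stabilized values, with the B cell score or in the 12 libraries, 2 with only 2 groups and 4226 with weights. In DIO-VSG minus DIO-LFD it was 4 in the 12 libraries, 184 with weights and 1533 with only 2 groups. In DIO-VSG minus DIO-HFD it was 1 with total-read scaling and 3739 with weights, and in DIO-LFD minus DIO-HFD 4 with the adipocyte score and 1811 with weights. Leaving out 1 library gave 0 to 128 in DIO-HFD minus CON-LFD and 0 to 873 in DIO-VSG minus CON-LFD, highest without CON-LFD replicate 3, 0 to 6 in DIO-LFD minus CON-LFD, 0 to 1 in DIO-LFD minus DIO-HFD and in DIO-VSG minus DIO-HFD, and 0 in DIO-VSG minus DIO-LFD. The cause of these changes was not tested. The labels state no pairing of same-numbered libraries, so the replicate block is not a paired analysis here. Over 24 such pairs the r of deviations from group means was −0.609 to 0.534, and 7 of 16 libraries were most like one of their own number. Whether they shared more than a number was not tested. For the members, with 696 or more reads in each library, counting error was small beside the spread between the 4 mice of a group. Other limits on the precision, such as differences in marker content, were not compared.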
